A study of Mus musculus with 2 samples.

Results

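The granzymes and perforin are the proteins that killer lymphocytes store in granules and release onto a target cell. The members followed here are Gzma, Gzmb, Gzmc, Gzmd, Gzme, Gzmf, Gzmg and Gzmk, which encode granzymes, and Prf1, which encodes perforin. These are 9 of the 32285 genes in the matrices. They were listed by name after their levels in these same cells had been seen, so their levels are given as a description. The data are single-cell RNA and T cell receptor libraries, from subcutaneous mouse tumours, prepared with a 10x Genomics immune profiling kit. One library came from mice on a diet free of serine and glycine (labelled SG) and 1 from mice on a control diet (labelled CT). The labels give no strain, sex, age, tumour line, diet duration or number of mice, and their tissue preparation text describes human heart, whereas the organism, the source and the gene symbols are mouse and tumour.

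With 1 library per diet there was no replicate check, so no test between diets was made and no p-value is given. Every interval below is an exact 95% interval that covers counting error only: molecules of 1 cell, and cells of 1 T cell clone, are not independent. UMIs (unique molecular identifiers, each counting 1 captured molecule) totalled 157234945 over 7999 barcodes for the serine/glycine-free diet, against 161332426 over 8466 barcodes for the control diet. Barcodes with fewer than 300 genes or a mitochondrial share above 20% were dropped, leaving 7913 serine/glycine-free and 8262 control cells. The libraries shared 104 barcodes, of which 0 fell in a described population of both.

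CD8 T cells were called as cells with a T cell receptor beta (TRB) contig and more Cd8a and Cd8b1 than Cd4 UMIs. This gave 166 serine/glycine-free cells with a median of 8181.5 UMIs, against 69 control cells with a median of 3810. CD4 T cells, with a TRB contig and more Cd4 UMIs, numbered 32 in the serine/glycine-free library and 56 in the control library. NK (natural killer) cells were called from at least 1 UMI of Ncr1, which encodes the receptor NKp46, and no receptor contig. They numbered 147 in the serine/glycine-free library, with a median of 6245 UMIs, and 17 in the control library, with a median of 11056. A further 45 serine/glycine-free and 117 control cells with a TRB contig had equal Cd8 and Cd4 counts, mostly 0 of each, and were left uncalled.

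The calls were checked against marker genes. All 8 T cell markers had UMIs in the CD8 T cells of both libraries. Cd8a, Cd8b1 and Cd4 were at 0 UMIs in the NK cells of both libraries, while Klrd1, an NK receptor subunit also made by activated T cells, was found in 128 of 147 serine/glycine-free and 15 of 17 control NK cells. Of 10 NK markers outside the members, 8 had UMIs in the NK cells of each library. Klrb1c, which encodes the receptor NK1.1, had a UMI in 24 of 147 and 2 of 17 NK cells. Cd3g had UMIs in 28 of 147 and 5 of 17 NK cells, and Trdc, the gamma delta T cell receptor constant gene, in 47 of 147 and 6 of 17, so the name NK rests on Ncr1 and the missing contig. No doublet caller was run. Macrophage markers summed to 504 CPM (UMIs of a gene per 1000000 UMIs of the population) in serine/glycine-free CD8 T cells and 2250 CPM in control CD8 T cells, and leaving out cells with macrophage or Krt20 UMIs is one of the alternatives.

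Perforin forms pores in the target membrane, and granzymes are serine proteases that enter through them. Granzyme B cuts after aspartate and activates caspases, so that the target dies by apoptosis. Granzyme A is a tryptase with other substrates, among them gasdermin B in humans, and granzyme K is a related tryptase typical of memory-like CD8 T cells. Granzymes C, D, E, F and G are encoded beside Gzmb in the mouse, have no one-to-one human partner, and are known from strongly stimulated mouse T cells and NK cells. A granzyme without perforin is thought to reach the inside of a target poorly, which is why the mix of both in the same cell is described here.

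The members lie at 3 places in the mouse genome (build GRCm38.p6, which corresponds to the mm10 build of the submitters' processing notes). Prf1 is at chr10:61297751-61304684 on the plus strand. Gzma at chr13:113093824-113100981 and Gzmk at chr13:113171630-113180965 are neighbours on the minus strand. The other 6 fill chr14:56117619-56262334 on the minus strand, a stretch of 144716 bases, with Gzmb at one end (chr14:56258836-56262334) followed by Gzmc, Gzmf, Gzmg, Gzmd and, at the other end, Gzme (chr14:56117619-56120625).

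All 9 members had a promoter window in the RefSeq table of that build, which runs from 250 bases before the start site to 50 bases after it. The windows of Gzmd, Gzme, Gzmf and Gzmg were 77.3% to 93.4% identical in 6 pairwise alignments, with the highest value between Gzmd and Gzme. Gzmc matched those 4 at 74.6% to 83.8%. Gzmb, although next to Gzmc, matched Gzmc to Gzmg at only 46.8% to 51.7%, within the 44.8% to 53.2% found for pairs with Prf1, Gzma or Gzmk. The upstream stretches of Gzmc to Gzmg, whose UMIs were found together in a few NK cells, are shown first, from base -230 to base -101 of the start site, 5′ to 3′. Capitals mark the letters CAGGAAG or their reverse complement CTTCCTG, a core bound by ETS factors, and AACCACA or TGTGGTT, a core bound by RUNX factors.
Gzmc: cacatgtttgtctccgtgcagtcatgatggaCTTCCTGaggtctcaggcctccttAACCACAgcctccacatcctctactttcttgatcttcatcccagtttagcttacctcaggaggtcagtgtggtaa
Gzmd: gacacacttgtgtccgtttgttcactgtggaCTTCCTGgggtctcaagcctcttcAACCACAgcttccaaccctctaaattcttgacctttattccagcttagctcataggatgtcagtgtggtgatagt
Gzme: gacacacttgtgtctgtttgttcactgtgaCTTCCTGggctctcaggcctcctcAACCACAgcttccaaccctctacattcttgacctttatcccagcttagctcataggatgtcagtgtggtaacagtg
Gzmf: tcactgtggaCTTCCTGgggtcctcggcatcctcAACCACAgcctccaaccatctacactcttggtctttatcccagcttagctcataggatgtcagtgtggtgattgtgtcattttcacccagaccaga
Gzmg: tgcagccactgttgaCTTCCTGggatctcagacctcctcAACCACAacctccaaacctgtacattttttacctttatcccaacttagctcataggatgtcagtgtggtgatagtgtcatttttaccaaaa
In each of these 5 stretches the ETS letters began 24 bases before the RUNX letters, and the motifs did not overlap. They lie at chr14:56234758-56234887 for Gzmc, chr14:56132694-56132823 for Gzmd, chr14:56120726-56120855 for Gzme, chr14:56211508-56211637 for Gzmf and chr14:56159680-56159809 for Gzmg. Perforin, granzyme A and granzyme B, the members with the largest UMI counts over the CD8 T cells of both libraries summed, had other arrangements, shown from base -230 to base -101 for Prf1 (chr10:61297606-61297735) and from base -120 to -1 for Gzma (chr13:113100982-113101101) and Gzmb (chr14:56262335-56262454).
Prf1: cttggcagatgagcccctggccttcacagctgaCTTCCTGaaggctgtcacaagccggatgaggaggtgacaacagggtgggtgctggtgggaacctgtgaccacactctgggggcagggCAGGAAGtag
Gzma: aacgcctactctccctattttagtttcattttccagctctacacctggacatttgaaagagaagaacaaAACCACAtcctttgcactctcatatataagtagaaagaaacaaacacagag
Gzmb: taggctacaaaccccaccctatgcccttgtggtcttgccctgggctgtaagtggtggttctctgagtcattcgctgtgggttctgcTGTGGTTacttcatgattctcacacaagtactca
The Prf1 window held the ETS letters at bases -197 and -110 and no RUNX letters, whereas the Gzma and Gzmb windows held the RUNX letters at bases -51 and -34 and no ETS letters. Over the whole windows and on both strands, the RUNX letters were found in 7 of the 9 members and in 5.27% of 32851 promoters, and the ETS letters in 6 members and in 13.3% of promoters. GGTGTGA, a T-box core, was found in Gzmk alone among the members (3.98% of promoters). TGANTCA, an AP-1 core (7.81% of promoters), and TTCNNNGAA, a STAT core (8.30%), were each found in Gzmb alone. A match describes letters and does not show that a factor was bound, and binding was not measured here.

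Perforin was higher, and granzymes A and B lower, in the CD8 T cells of the serine/glycine-free library than in those of the control library. Prf1 had 801 UMIs in serine/glycine-free CD8 T cells, or 423 CPM (394 to 453), against 45 UMIs, or 95.1 CPM (69.4 to 127), in control CD8 T cells. The ratio was 4.45 (3.29 to 6.15). A serine/glycine-free cell held 0 to 38 Prf1 UMIs with a median of 3, and a control cell 0 to 14 with a median of 0. At least 1 Prf1 UMI was found in 126 of 166 serine/glycine-free cells and in 14 of 69 control cells. No single serine/glycine-free cell carried the sum, as the richest held 4.74% of it, whereas 1 control cell held 14 of the 45 control UMIs.

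The ratio for Prf1 kept its direction in all 13 alternatives run but not its size. It was 6.16 when every cell weighed the same, 12.9 after each cell was thinned to 1000 UMIs, where only 3 control UMIs remained, and 2.69 when each TRB clone counted once. Over every cell with a TRB contig, called CD8 or not, Prf1 had 803 UMIs (321 CPM) in 243 serine/glycine-free cells, against 103 UMIs (65.0 CPM) in 242 control cells, a ratio of 4.94 (4.02 to 6.13). Nearly all of those serine/glycine-free UMIs came from the called CD8 T cells. In the uncalled T cells alone the direction was opposite, with 2 serine/glycine-free UMIs (6.26 CPM) and 53 control UMIs (82.8 CPM). That ratio was 0.0756 (0.00892 to 0.287), and 1 control cell held 39 of the 53 UMIs.

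Granzyme A showed the opposite direction in the same cells. Gzma had 137 UMIs (72.4 CPM, 60.7 to 85.5) in serine/glycine-free CD8 T cells, against 317 UMIs (670 CPM, 598 to 748) in control CD8 T cells. The ratio was 0.108 (0.0877 to 0.132). It was found in 9 of 166 serine/glycine-free cells and in 13 of 69 control cells. Most of both sums came from 1 cell per library. The richest serine/glycine-free cell held 113 of the 137 UMIs, and the richest control cell held 193 of the 317.

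These 2 cells also carried transcripts typical of NK cells. The serine/glycine-free cell had 4 UMIs of Ncr1, 41 of Tyrobp and 17 of Fcer1g, signalling adaptors of NK and myeloid cells, and also held 107 of the 122 Gzmc UMIs and 48 of the 56 Gzmd UMIs of all CD8 T cells of that library. The control cell had 2 Ncr1, 6 Tyrobp and 12 Fcer1g UMIs. Both had Cd3e and Cd3g UMIs, 9 and 10 in the serine/glycine-free cell and 7 and 10 in the control cell. Whether each was 1 cell or 2 in a droplet was not tested. Without T cells that held an Ncr1 UMI, Gzma had 24 UMIs in serine/glycine-free and 124 UMIs in control CD8 T cells, and the ratio was 0.0483. Over all cells with a TRB contig it was 0.215 (0.176 to 0.262), with 54.8 CPM in the serine/glycine-free and 255 CPM in the control library. The uncalled T cells held 0 serine/glycine-free Gzma UMIs and 86 control ones, the control ones at 134 CPM. Of those 117 uncalled control T cells, 9 held an Ncr1 UMI.

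Granzyme B, the most widespread granzyme of CD8 T cells, was lower as well, but less so than granzyme A. Gzmb had 1054 UMIs (557 CPM, 524 to 591) in serine/glycine-free CD8 T cells, against 753 UMIs (1592 CPM, 1480 to 1710) in control CD8 T cells. The ratio was 0.350 (0.318 to 0.384). A serine/glycine-free cell held 0 to 64 UMIs with a median of 2, against 0 to 112 with a median of 4 in a control cell, so the ranges overlapped widely. It was found in 107 of 166 cells of the serine/glycine-free library and 52 of 69 of the control library. Gzmk had 42 UMIs (22.2 CPM) in 28 serine/glycine-free cells, against 31 UMIs (65.5 CPM) in 18 control cells, a ratio of 0.338 (0.208 to 0.557). It was spread thinly, with at most 5 and 6 UMIs in a cell, and its ratio was 0.640 when each clone counted once, 0.566 after thinning and 0.666 over all cells with a TRB contig.

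Granzymes C to G were scarce in CD8 T cells. Gzmc had 122 serine/glycine-free and 61 control UMIs (64.4 and 129 CPM, ratio 0.50), and without the richest cell of each library 15 and 27 UMIs were left (ratio 0.137). Without T cells holding an Ncr1 UMI the ratio was 0.0668. Gzmd and Gzme had 56 and 19 UMIs in serine/glycine-free CD8 T cells and 0 in control CD8 T cells. Against a limit of 3 counts in the control sum they were at least 4.66-fold and 1.58-fold higher, and the exact 95% lower limits of these ratios were smaller, 3.67 and 1.17. Of the Gzmd UMIs, 48 lay in the cell with NK transcripts described above, and without T cells holding an Ncr1 UMI 8 Gzmd UMIs (4.28 CPM) were left, below the 6.43 CPM that 3 control counts would give, so that no direction can be given. The Gzme UMIs lay in 4 cells, and without the richest of these 13 UMIs were left, at 7.16 CPM. Over every cell with a TRB contig the Gzme ratio was 2.41 (0.870 to 8.26), an interval that includes 1. Gzmf had 31 serine/glycine-free UMIs, 23 of them in 1 cell, against 1 control UMI (ratio 7.74, 1.29 to 316). Without the richest cell of each library 8 and 0 Gzmf UMIs were left, again under the limit of 3 control counts. No Gzmg UMI was seen in the CD8 T cells of either library, which allows up to 1.58 CPM in the serine/glycine-free and 6.34 CPM in the control sum. These paralogs are similar in sequence, and how reads shared by several of them were assigned is not given in the sources used here.

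**Figure D1:**
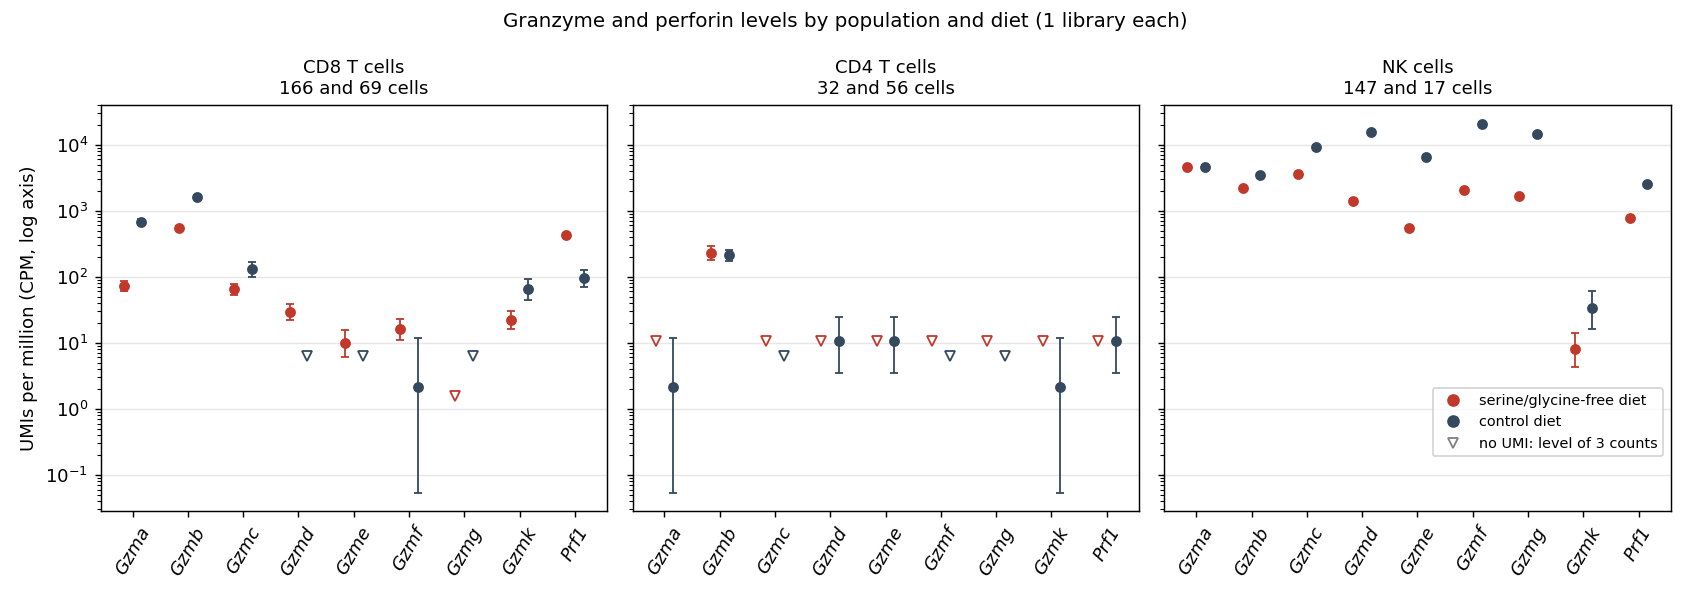
Levels of the 9 members in CD8 T, CD4 T and NK cells, in CPM on a log axis, for the serine/glycine-free library (left point of each pair) and the control library (right point). Bars are exact 95% Poisson intervals, hidden where shorter than the point, and open triangles mark the level that 3 counts would give where no UMI was seen. In CD8 T cells Prf1 is higher in the serine/glycine-free library (423 against 95.1 CPM) while Gzma, Gzmb, Gzmc and Gzmk are lower; in NK cells 8 of the 9 points are lower and Gzma is level.

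Read against all genes, 5 members reached the mean of 20 CPM over both libraries that the comparison of folds required in CD8 T cells. Gzmk was the lowest of these at 43.9 CPM and Gzmd the highest below the minimum at 14.8 CPM. On the log2 scale of CPM plus 5, Prf1 was higher by at least 2-fold (2.10), and Gzma (-3.13), Gzmb (-1.51) and Gzmk (-1.38) were lower by at least 2-fold, while Gzmc (-0.95) was not. Of 5931 genes tested in CD8 T cells, 2.12% were higher and 2.77% lower by that rule, with a median log2 ratio of -0.05. Since the members were chosen on these values, nothing is read from that difference.

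**Figure D2:**
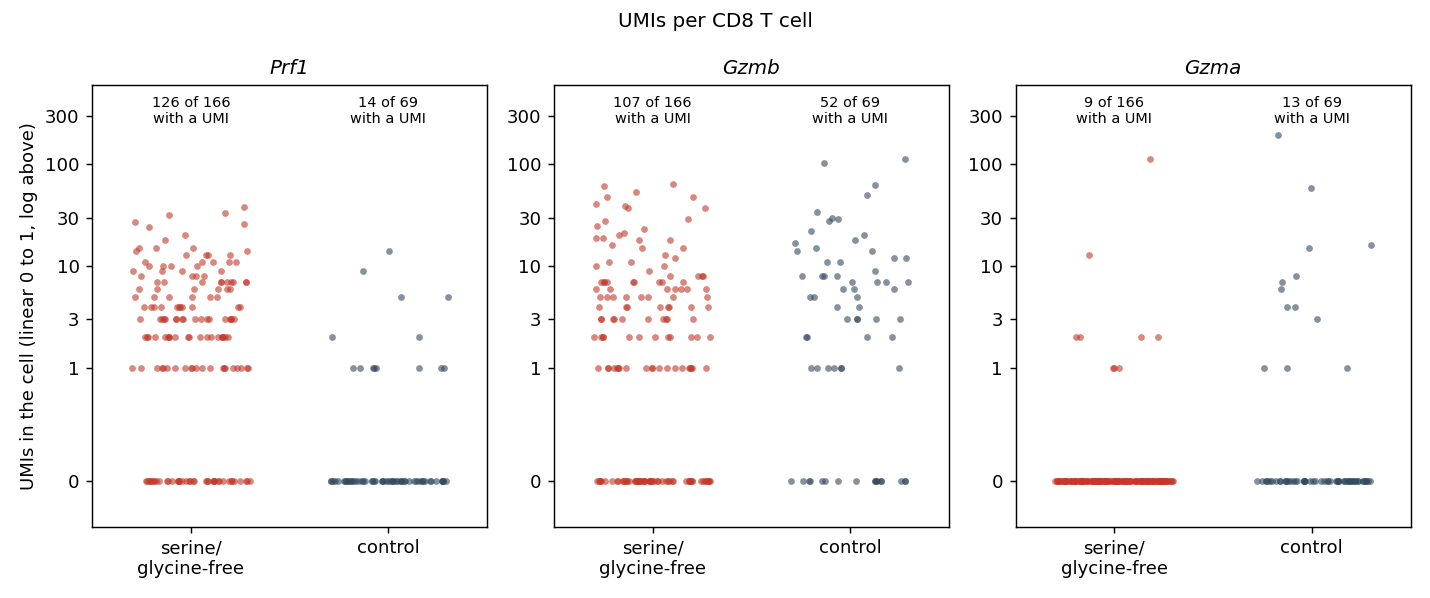
UMIs of Prf1, Gzmb and Gzma in every CD8 T cell, on an axis that is linear from 0 to 1 and logarithmic above, with 1 point per cell: 166 serine/glycine-free cells on the left and 69 control cells on the right of each panel. Prf1 UMIs are spread over 126 serine/glycine-free cells but 14 control cells, whereas the Gzma sums of both libraries rest on 1 high cell each, with 113 and 193 UMIs.

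The mix of granzymes and perforin within single CD8 T cells differed between the libraries. To compare cells of unequal depth, each cell was thinned to 1000 UMIs, which left out 2 serine/glycine-free and 4 control CD8 T cells below that number. Prf1 without any granzyme was seen in 35 of 164 serine/glycine-free cells (21.3%, 15.3% to 28.4%) and in 2 of 65 control cells (3.08%, 0.375% to 10.7%). A granzyme without Prf1 was seen in 28 of 164 serine/glycine-free cells (17.1%, 11.7% to 23.7%) and in 41 of 65 control cells (63.1%, 50.2% to 74.7%). Both together were seen in 26 of 164 serine/glycine-free cells (15.9%) and in 1 of 65 control cells (1.54%). No member was seen in 75 of 164 serine/glycine-free cells (45.7%) and in 21 of 65 control cells (32.3%).

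Unthinned, 93 of 166 serine/glycine-free CD8 T cells (56.0%) held both a granzyme and Prf1, 33 (19.9%) Prf1 alone and 23 (13.9%) a granzyme alone. Of 69 unthinned control CD8 T cells, 13 (18.8%) held both, 1 (1.45%) Prf1 alone and 41 (59.4%) a granzyme alone. The background was low: in the macrophage gate, cells that make neither protein, Prf1, Gzma and Gzmb were seen in 0 of 736 thinned serine/glycine-free and 0 of 742 thinned control cells, which allows shares of up to 0.408% and 0.404%. Those macrophages had unthinned medians of 11409 and 10293.5 UMIs.

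Among granzymes, Gzmb was the usual partner. In thinned CD8 T cells Gzmb was the only granzyme in 37 of 164 cells (22.6%) in the serine/glycine-free library and 26 of 65 (40.0%) in the control library. Gzma was almost always seen with Gzmb: both were held by 3 of 164 cells in the serine/glycine-free and 7 of 65 in the control library (1.83% and 10.8%), while 0 of 164 and 1 of 65 held Gzma as the only granzyme. Gzma and Prf1 met in 1 of 164 cells of the serine/glycine-free library and 0 of 65 of the control library. Thinning left only 3 control Prf1 UMIs, so this count cannot show whether the 2 genes were kept apart. Unthinned, several Gzma-positive cells of each library held Prf1 UMIs and several held none. In unthinned cells with at least 5 granzyme UMIs, 62 serine/glycine-free and 40 control cells, the median share of Gzmb among a cell's granzyme UMIs was 100% and 85.7%. For each Gzmb UMI of the CD8 T cell sums there were 0.760 Prf1 UMIs in the serine/glycine-free and 0.0598 in the control library.

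**Figure D3:**
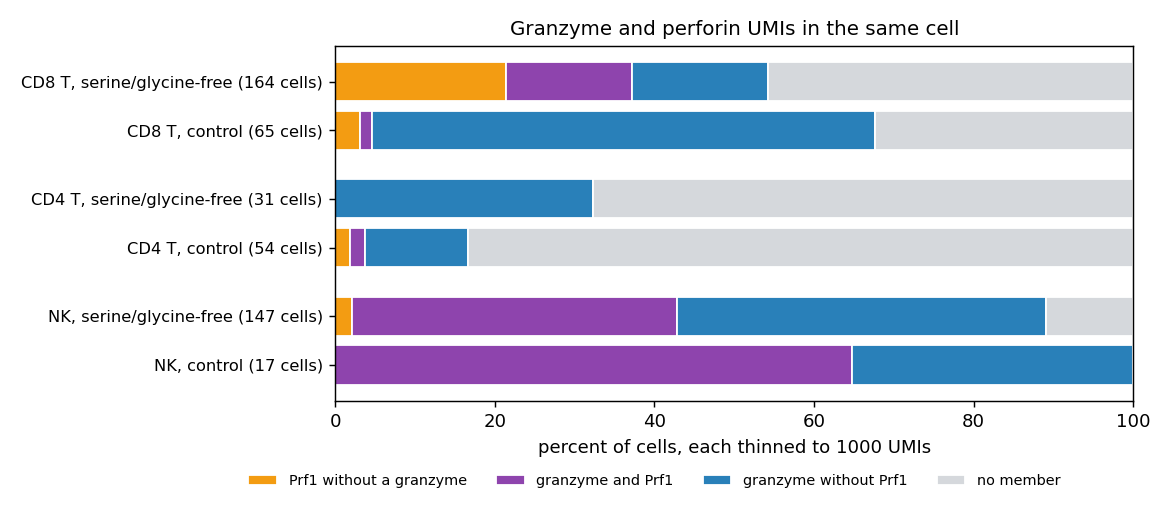
Share of cells with Prf1 only, both, a granzyme only or no member, after thinning each cell to 1000 UMIs, for CD8 T, CD4 T and NK cells with the serine/glycine-free library above the control library. Prf1 without a granzyme took 21.3% of CD8 T cells in the serine/glycine-free and 3.08% in the control library, and a granzyme without Prf1 17.1% and 63.1%, while NK cells of both libraries mostly held a granzyme.

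The Prf1 ratio was also taken among cells alike in PD-1 status or clone size, and no difference between these ratios was tested. Pdcd1, which encodes the inhibitory receptor PD-1, had UMIs in 143 of 166 serine/glycine-free and 21 of 69 control CD8 T cells. Among these, Prf1 stood at 459 CPM in the serine/glycine-free and 305 CPM in the control library, and the ratio was 1.5 (1.07 to 2.17). A Prf1 UMI was found in 118 of these 143 serine/glycine-free cells and in 6 of the 21 control cells. The control sum was 35 UMIs, of which 1 cell held 14. Among CD8 T cells without a Pdcd1 UMI, 23 and 48 cells, Prf1 stood at 116 and 27.9 CPM (23 and 10 UMIs), a ratio of 4.15 (1.90 to 9.77). Gzmb was lower in both: its ratio was 0.255 (0.220 to 0.295) with a Pdcd1 UMI and 0.589 (0.492 to 0.702) without one. The Gzma ratio was 0.676 (0.373 to 1.34) with a Pdcd1 UMI, an interval that includes 1, and 0.101 (0.0579 to 0.164) without one. Single cells held most of these sums: 113 of 120 serine/glycine-free UMIs with Pdcd1, and 193 of 305 control UMIs without it. Median depth was 8988 and 3986 UMIs in the Pdcd1-positive cells of the serine/glycine-free and control libraries, and a Pdcd1 UMI is itself easier to find in a deeper cell.

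Clonal expansion also differed. The 166 serine/glycine-free CD8 T cells fell into 35 TRB clones with up to 62 cells, against 54 clones of up to 4 cells among the 69 control CD8 T cells. In clones of 1 cell, Prf1 stood at 233 CPM in the serine/glycine-free and 73.7 CPM in the control library (ratio 3.16, 1.85 to 5.47). Gzmb in those cells stood at 539 and 1727 CPM (ratio 0.312, 0.244 to 0.394). In clones of 2 to 9 cells it stood at 213 and 158 CPM (ratio 1.35, 0.815 to 2.35), and Gzmb in those clones was close to level at 1142 and 1197 CPM (ratio 0.955, 0.790 to 1.16). Clones of 10 or more cells, found in the serine/glycine-free library only, held 108 cells with 506 CPM of Prf1 and 385 CPM of Gzmb. Diet, clone size and PD-1 status cannot be told apart with 1 library per diet.

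The 8 serine/glycine-free clones of at least 4 cells differed widely in Gzmb. Gzmb ran from 172 CPM in a clone of 16 cells to 3560 CPM in a clone of 8 cells, and stood at 292 CPM in the largest clone of 62 cells. Prf1 lay between 260 and 624 CPM in 7 of the 8 clones. The exception was the clone of 4 cells, at 36.7 CPM of Prf1 from 2 UMIs, which had 275 CPM of Gzma and 1102 CPM of Gzmb. Gzma was at 0 UMIs in 5 of the 8 clones, and its highest value, 354 CPM in the clone of 19 cells, came from the single cell with Ncr1 UMIs described above. The 2 control clones of 4 cells had 459 and 240 CPM of Gzmb and no Prf1 or Gzma UMI.

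**Figure D4:**
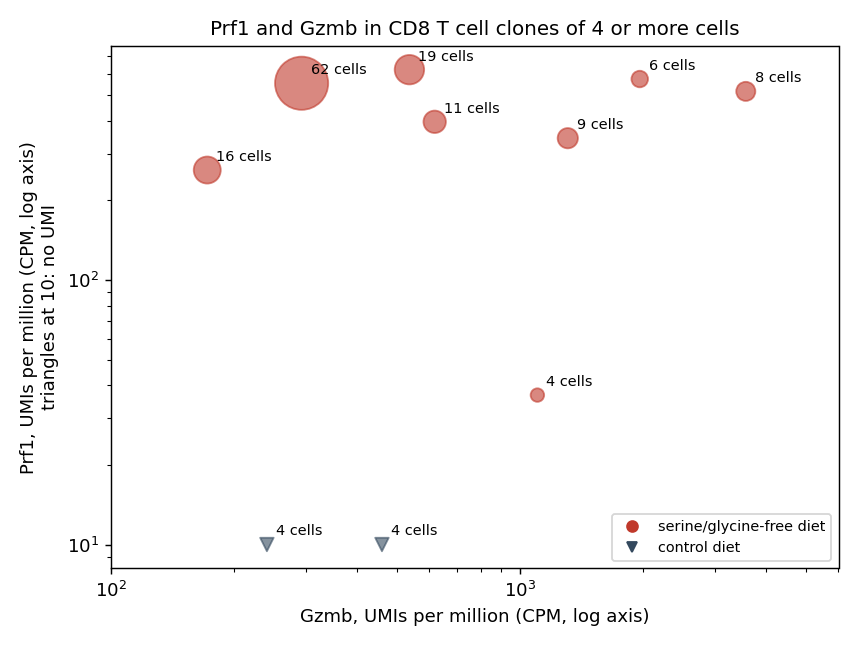
Prf1 against Gzmb, both in CPM on log axes, in CD8 T cell clones of at least 4 cells: 8 serine/glycine-free clones (circles, area scaled to cells) and 2 control clones (triangles, placed at 10 because no Prf1 UMI was seen). Gzmb spans 172 to 3560 CPM over the serine/glycine-free clones, while 7 of their 8 Prf1 values lie between 260 and 624 CPM.

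The comparison was also made by Mki67, a marker of cycling cells, which had UMIs in 62 of 166 serine/glycine-free and 20 of 69 control CD8 T cells. Prf1 was higher in the serine/glycine-free library both with a Mki67 UMI (342 against 117 CPM, ratio 2.93) and without one (530 against 76.0 CPM, ratio 6.98). Gzma had 0 UMIs in the 62 serine/glycine-free cells with Mki67, against 67 UMIs in the 20 control cells, of which 1 cell held 58.

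Genes whose UMIs varied most like those of a member were ranked over 1200 candidate genes, by Pearson's r of log-scaled levels across CD8 T cells of 1 library. These r are descriptions over cells that share a library and are sparse. For Prf1 in the 166 serine/glycine-free cells the 5 leading genes were Cst7 (r = 0.45), Tnfrsf9 (0.44), Nkg7 (0.44), Sh2d2a (0.44) and Pdcd1 (0.43). Cst7 encodes a cysteine protease inhibitor of cytotoxic granules and Tnfrsf9 the costimulatory receptor 4-1BB. In the 69 control cells their r were 0.31, 0.43, 0.08, 0.03 and 0.18, and only Tnfrsf9 was again among the 5 leading genes. The others there were Sh3bgrl (0.49), Uba1 (0.47), Fundc2 (0.46) and Ube2a (0.42). For Gzma, Gzmb and the chemokine gene Ccl5 were among the 5 leading genes in both libraries, with r of 0.26 and 0.23 in serine/glycine-free and 0.46 and 0.46 in control cells. The r values of Gzma with cell depth were -0.12 and -0.26.

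Of 6 listed serpins that inhibit granule proteases, 5 could be compared in CD8 T cells, and 4 of these were higher by at least 2-fold in the serine/glycine-free library and 0 lower, where 2.12% of all genes tested were higher and 2.77% lower. Serpinb6a was not (334 against 254 CPM), and Serpina3f did not reach the minimum. Serpinb9, the mouse inhibitor of granzyme B, had 256 UMIs (135 CPM) in serine/glycine-free and 13 UMIs (27.5 CPM) in control CD8 T cells. Serpinb6b stood at 167 and 21.1 CPM, Serpinb9b at 42.8 and 14.8 CPM, and Serpina3g at 36.4 and 12.7 CPM. Serpinb9b and Serpina3g reached the minimum mean only through the serine/glycine-free library, so their higher values were fixed by the minimum and are not read against that share. Of 16 comparable genes for granule content and release, Cst7 was higher (336 against 159 CPM) and Ctsc, the cathepsin that removes the propeptide of granzymes, was lower (112 against 245 CPM). The list's median log2 ratio was 0.06. The release genes Rab27a and Unc13d had 31.2 against 29.6 CPM and 30.6 against 44.4 CPM.

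Among 10 other effector genes, Ccl5 (477 against 1763 CPM) and Lta (8.45 against 31.7 CPM) were lower by at least 2-fold in serine/glycine-free CD8 T cells, and Ifng, the interferon-gamma gene, was at 273 against 247 CPM. Of 19 comparable regulators, Tox (230 against 59.2 CPM), a factor of exhausted T cells, Nr4a2 (310 against 121 CPM) and Il2rb (400.3 against 192 CPM), an IL-2 and IL-15 receptor chain, were higher. Eomes (9 against 18 UMIs) and Tcf7 (16 against 20 UMIs), factors of memory and progenitor cells, were lower. Lta, Eomes and Tcf7 reached the minimum mean only through the control library, so their lower values were fixed by the minimum. Of 8 proliferation genes, 3 were higher by at least 2-fold and 0 lower. All these counts stand against the same 2.12% and 2.77% of genes. Gzmm had 4 and 0 UMIs and Gzmn 0 and 0 in serine/glycine-free and control CD8 T cells.

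CD4 T cells held granzyme B and little else. Gzmb had 66 UMIs (231 CPM, 179 to 294) in 12 of 32 serine/glycine-free cells, against 100 UMIs (212 CPM, 173 to 258) in 9 of 56 control cells, a ratio of 1.09 (0.785 to 1.5). One control cell held 65 of the 100 UMIs, and without the richest cell of each library the ratio was 2.35. It was 2.23 after thinning and 0.826 without cells of over 20000 UMIs. Prf1 had 0 serine/glycine-free and 5 control UMIs. The 7 remaining members had 0 UMIs each in the serine/glycine-free and 0 to 5 in the control cells, and a count of 0 allows up to 10.5 CPM in the serine/glycine-free sum. Gzmb was the only member to reach 20 CPM, with a log2 ratio of 0.12, and it was past 2-fold in neither direction, where 3.98% of 5909 genes were higher and 6.97% lower.

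Among CD4 T cells with a Foxp3 UMI, the regulatory T cell factor, Gzmb stood at 344 CPM in 12 serine/glycine-free and 711 CPM in 11 control cells. The richest of these control cells held 65 of their 83 Gzmb UMIs, and the richest serine/glycine-free cell 15 of 35. The levels were not recomputed without these cells, so no direction is read from them. Among CD4 T cells without a Foxp3 UMI, Gzmb stood at 169 CPM in 20 serine/glycine-free and 48.0 CPM in 45 control cells. The list of 8 proliferation genes had 6 higher by at least 2-fold and 0 lower in the serine/glycine-free CD4 T cells, against the 3.98% and 6.97% of all genes. Of 8 comparable other effector genes, 2 were higher by at least 2-fold and 3 lower, against the same 3.98% and 6.97%. Ifng stood at 228 against 40.3 CPM, whereas Ccl3 (45.5 against 180 CPM), Ccl5 (66.5 against 144 CPM) and Lta (21.0 against 50.9 CPM) were lower. Fasl, the other higher gene (52.5 against 17.0 CPM), reached the minimum mean only through the serine/glycine-free library, so its higher value was fixed by the minimum. Haemoglobin genes had 0 UMIs in the serine/glycine-free CD4 T cells and 3046 CPM in the control ones, all in 2 cells, and their part in these values was not tested.

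NK cells carried most molecules of 7 of the 9 members in both libraries, all but Gzmb and Gzmk, and all members but Gzma were lower in CPM in the serine/glycine-free library. Prf1 had 1220 UMIs (770 CPM, 727 to 814) in 147 serine/glycine-free NK cells, against 765 UMIs (2563 CPM, 2384 to 2751) in 17 control NK cells. The ratio was 0.30 (0.274 to 0.329), opposite in direction to that of CD8 T cells. A serine/glycine-free cell held 0 to 192 UMIs with a median of 4, against 0 to 235 with a median of 15 in a control cell. Gzma was level, with 7348 UMIs (4635 CPM) and 1383 UMIs (4633 CPM), a ratio of 1.0 (0.944 to 1.06). Gzmb stood at 2208 and 3471 CPM, a ratio of 0.636 (0.594 to 0.683). Gzmk had 13 and 10 UMIs.

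The size of these ratios varied with the cells counted. Of the 765 control Prf1 UMIs, 2 cells held 235 and 194. Without cells of over 20000 UMIs, 125 serine/glycine-free and 10 control NK cells remained, and the ratios were 0.574 for Prf1, 1.86 for Gzma and 0.827 for Gzmb. After thinning, the Gzma ratio was 1.68. No alternative brought Prf1 or Gzmb of NK cells above 1. In thinned NK cells Gzma and Gzmb met in 77 of 147 cells (52.4%) in the serine/glycine-free library and 9 of 17 (52.9%) in the control library. A granzyme and Prf1 met in 60 of 147 serine/glycine-free cells (40.8%, 32.8% to 49.2%) and 11 of 17 control cells (64.7%, 38.3% to 85.8%), and these intervals overlap. Prf1 without a granzyme was seen in 3 of 147 and 0 of 17 NK cells.

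Gzmd to Gzmg were concentrated in a few NK cells, and Gzmc was more widely spread. Gzmc was found in 72 of 147 serine/glycine-free and 11 of 17 control NK cells, at 3620 and 9380 CPM (ratio 0.386). Gzmd stood at 1422 and 15487 CPM, Gzme at 552 and 6599, Gzmf at 2029 and 20649, and Gzmg at 1643 and 14656 CPM, with ratios between 0.0836 and 0.112. Gzmd to Gzmg summed to 8950 UMIs in 21 of 147 serine/glycine-free cells and 17132 UMIs in 6 of 17 control cells. The 2 serine/glycine-free cells with at least 1000 such UMIs held 91.9% of the sum, and the 3 such control cells held 98.5%.

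The richest serine/glycine-free NK cell had 2445 Gzmc, 1293 Gzmd, 509 Gzme, 1874 Gzmf and 2016 Gzmg UMIs, and granzymes made up 22.2% of its 38773 UMIs. The richest control NK cell had 225 Gzmc, 2252 Gzmd, 1028 Gzme, 3247 Gzmf and 2068 Gzmg UMIs, 32.2% of its 27730 UMIs being granzyme. The third control cell also had 11 Cd3g and 9 Trdc UMIs. Of the 21 serine/glycine-free cells with Gzmd to Gzmg, 20 had Gzmc, 19 Gzmb, 18 Prf1 and 16 Gzma. Over all 147 cells the counts were 72, 131, 117 and 111, so the shares of Gzmb, Prf1 and Gzma were near those of all NK cells. All 6 such control cells had Gzmc, Gzmb and Prf1, and 5 had Gzma, against 11, 17, 15 and 13 of all 17. Cells with Gzmd to Gzmg were also deeper, with medians of 9770 against 5735 UMIs in the serine/glycine-free and 23215.5 against 9519 in the control library. Without the 2 and 3 richest cells, Gzmd had 158 serine/glycine-free and 161 control UMIs (ratio 0.127) and Gzmg 2 and 15 (ratio 0.0172), the Prf1 ratio was 0.475 and the Gzma ratio 1.0.

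**Figure D5:**
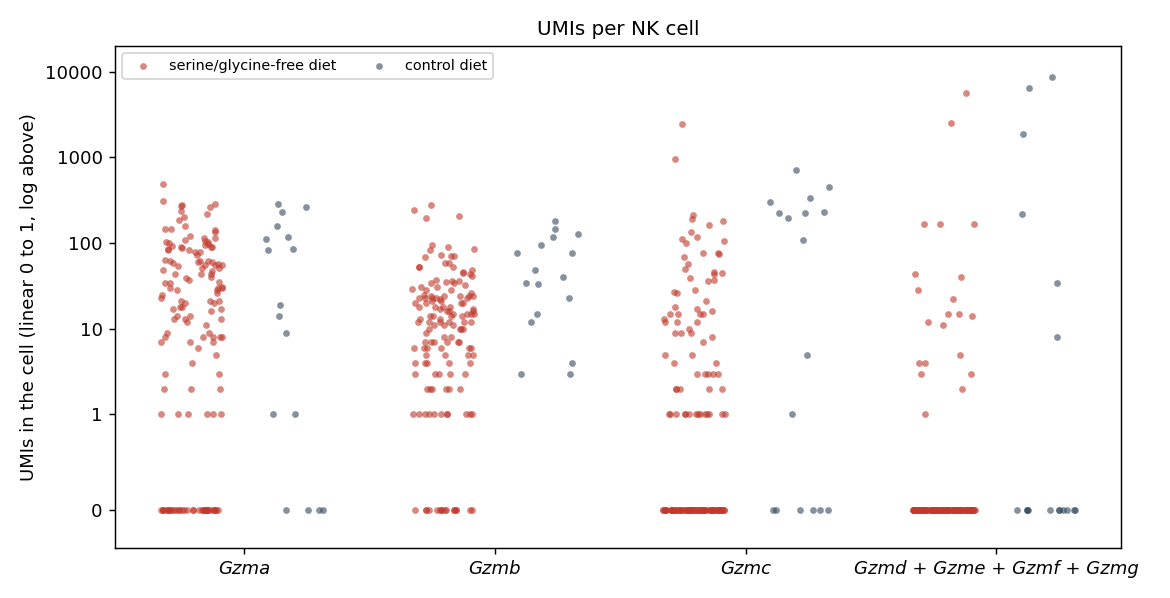
UMIs per NK cell of Gzma, Gzmb, Gzmc and the sum of Gzmd, Gzme, Gzmf and Gzmg, on an axis linear from 0 to 1 and logarithmic above, with 147 serine/glycine-free cells on the left and 17 control cells on the right of each pair. Gzma and Gzmb are spread over most cells, whereas 2 serine/glycine-free and 3 control cells stand above 1000 for the summed Gzmd to Gzmg.

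All 9 members reached a mean of 20 CPM in NK cells, Gzmk being the lowest at 20.8. Gzmk (8.20 and 33.5 CPM) reached it only through the control library, so its lower value was fixed by the minimum and is not counted. Prf1 and Gzmc to Gzmg were lower by at least 2-fold, Gzma and Gzmb were not, and 0 members were higher. Of 5613 genes tested in NK cells, 2.9% were lower and 7.13% higher by that rule. The median log2 ratio over all genes tested was 0.02. Since several members share the same few cells, they are not independent of each other. Some other effectors went the other way: of 8 comparable ones, Ccl4, Ccl5 and Ifng were higher by at least 2-fold and 0 were lower by at least 2-fold. All genes tested had 7.13% higher and 2.9% lower. Ccl4 stood at 592 and 20.1 CPM, Ccl5 at 768 and 114, and Ifng at 184 and 33.5 CPM. The control values of Ccl4 and Ifng rested on 6 and 10 UMIs. Fasl and Xcl1 were not higher, with ratios of 0.935 and 0.859. Ccl3 (59.9 and 10.0 CPM, with 3 control UMIs) reached the minimum mean only through the serine/glycine-free library. Its higher value was therefore fixed by the minimum and is not counted. Of 4 comparable serpins, 1 was lower by at least 2-fold and 0 were higher, against the same 2.9% and 7.13% of genes. This was Serpinb9b, at 89.6 and 419 CPM, with 125 UMIs in the 17 control cells. Single control cells with Gzmd to Gzmg UMIs held 43, 41, 18 and 16 of these 125. In NK cells the 15 comparable genes for granule content and release had 0 past 2-fold in either direction. Macrophage markers summed to 726 CPM in serine/glycine-free and 16.7 CPM in control NK cells. Without cells holding macrophage or Krt20 UMIs the ratios were 0.385 for Prf1 and 1.40 for Gzma. Levels of Ccl4, Ccl5 and Ifng without such cells are not given here.

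The share of a transcript that lay in each cell type differed between the libraries for Prf1, Gzma and Gzmb. Of all Prf1 UMIs in kept cells, CD8 T cells held 38.4% in the serine/glycine-free and 5.17% in the control library, and NK cells 58.4% and 87.8%. NK cells held 96.4% and 72.7% of Gzma UMIs and 71.7% and 36.0% of Gzmb UMIs. Uncalled T cells held 3.44% of serine/glycine-free and 30.3% of control Gzmb UMIs. Gzmc to Gzmg were at 92.5% or more in NK cells in both libraries. Gzmk was the exception: 85.4% and 87.4% of its UMIs lay in cells without Ptprc (the leukocyte antigen CD45), contig or Ncr1 UMIs. Those cells were most of the barcodes in both libraries, and their median depth was 19076 and 20310 UMIs. The Gzmk level in them was only 3.06 and 2.95 CPM, against 22.2 and 65.5 CPM in CD8 T cells.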

How the data were processed

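Single-cell RNA and T cell receptor libraries of 1 serine/glycine-free and 1 control sample were analysed. The deposited matrices hold raw UMI counts per gene and cell, which the authors made with Cell Ranger 7.1.0, per the file headers; build mm10 and a different version, Cell Ranger 2.2.2, are given per the submitters' processing notes. The settings for reads shared by paralogs are not given in the sources used here. The deposited contig tables list assembled receptor chains per barcode and were used for the populations and for TRB clones (identical CDR3 nucleotides).

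Counts were summed per library and population and divided by the sum without 650 receptor genes to give CPM. Intervals are exact (Poisson, Clopper-Pearson for shares, conditional binomial for ratios), at 95%, and a count of 0 was set against 3 counts. Folds over all genes used log2 of CPM plus 5 and a mean of at least 20 CPM. Cells were thinned to 1000 UMIs with seed 1 for shares. Python 3.11.15, numpy 2.4.6, scipy 1.17.1 and pandas 2.3.3 were used. The ratio intervals and the 2-fold rule were tested on simulated independent counts, which lack the clustering of molecules by cell seen here. Values were named for every member, and for listed genes past 2-fold (up to 4 a list) or defining a list. Members, gene lists and alternatives were chosen with earlier results of these data known. Depth, populations and alternatives are given with the results.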

Additional observations from a re-analysis of the deposited data

Results flagged for a closer look

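The diet ratios of 4 members lay on opposite sides of 1 in CD8 T cells and in NK cells, each with an interval that excludes 1 before cells were left out. The difference between the populations was not tested, because each diet has 1 library. Prf1 had a serine/glycine-free to control ratio of 4.45 in CD8 T cells and 0.30 in NK cells. For Gzmd, CD8 T cells were at least 4.66-fold higher in the serine/glycine-free library while the NK ratio was 0.0918. For Gzme the CD8 T cells were at least 1.58-fold higher and the NK ratio was 0.0836. Gzmf had ratios of 7.74 in CD8 T cells and 0.0982 in NK cells. For Gzmd, 48 of the 56 UMIs lay in 1 CD8 T cell that also held 4 Ncr1, 41 Tyrobp and 17 Fcer1g UMIs, and without T cells holding an Ncr1 UMI the remaining 8 UMIs (4.28 CPM) were under the 6.43 CPM of 3 control counts, which ends the opposite direction. For Gzmf, 23 of 31 UMIs lay in 1 cell, and the 8 UMIs left without it were also under that limit. The 19 Gzme UMIs lay in 4 cells. Without the richest of these, 13 UMIs (7.16 CPM) were left, close above the 6.43 CPM of 3 control counts. Over every cell with a TRB contig the Gzme ratio was 2.41 (0.870 to 8.26), an interval that includes 1. The exact lower limits of the Gzmd and Gzme ratios were 3.67 and 1.17. In control CD8 T cells Gzmd, Gzme and Gzmf had 0, 0 and 1 UMIs.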

How the results depend on the processing

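The serine/glycine-free to control ratio was recomputed under up to 13 other settings per population, 5 of all settings being chosen after seeing the data, for the 9 members in NK cells, for Prf1, Gzma, Gzmb, Gzmc, Gzmf and Gzmk in CD8 T cells and for Gzmb in CD4 T cells. Gzmd and Gzme, at 0 control UMIs in CD8 T cells, gave no ratio there; without T cells holding an Ncr1 UMI they had 8 and 19 serine/glycine-free UMIs. In CD8 T cells Prf1 stayed above 1 and Gzma and Gzmb stayed below 1 in all 13 settings run; in NK cells Prf1 and Gzmb stayed below 1 in all 11, while Gzma lay between 0.994 and 1.86. Of 72 recomputed ratios of Prf1, Gzma and Gzmb in these cells, 41 stayed within the interval of the reported value and 31 did not. With every cell weighing the same, CD8 T ratios were 6.16 (Prf1), 0.0855 (Gzma) and 0.396 (Gzmb), and NK ratios 0.466, 1.44 and 0.841. Thinned to 1000 UMIs, CD8 T ratios were 12.9 (Prf1) and 0.386 (Gzmb), and NK ratios 0.383 (Prf1), 1.68 (Gzma) and 0.868 (Gzmb). Without the largest clone, CD8 T Gzma was 0.152 and Gzmb 0.423, and with each clone counted once Prf1 was 2.69. Without T cells holding an Ncr1 UMI, Gzma was 0.0483 and Gzmb 0.399; without the richest cell, CD8 T Gzma was 0.0480 and Gzmb 0.386, and NK Gzma 1.10. Over every cell with a TRB contig, Gzma was 0.215 and Gzmb 0.474. Without macrophage or Krt20 UMIs, NK ratios were 0.385 (Prf1), 1.40 (Gzma) and 0.861 (Gzmb). With at least 2 Ncr1 UMIs, NK Gzma was 1.13 and Gzmb 0.693, and without Cd3 UMIs NK Prf1 was 0.229. Without cells of over 20000 UMIs, NK ratios were 0.574 (Prf1), 1.86 (Gzma) and 0.827 (Gzmb), and without the NK cells richest in Gzmd to Gzmg Prf1 was 0.475. Gzmf of CD8 T cells, with 1 control UMI, reversed to 0.896 with each clone counted once and to 0.396 when thinned, where 1 UMI was left in each library. The cause of these shifts was not tested. Of 124 recomputed values of the other members and of gene counts, 70 stayed within the interval or within 1.5 times, 52 did not and 2 reversed.

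Without the filter on low values, genes past 2-fold numbered 428 higher and 455 lower in CD8 T cells (126 and 164 with it), 681 and 1478 in CD4 T cells (235 and 412), and 1418 and 419 in NK cells (400 and 163). No paired analysis was possible because each diet has 1 library, and for the same reason no library could be left out. Precision is limited by 17 control NK cells, by 45 control Prf1 UMIs in CD8 T cells and by the few cells that hold most Gzma and Gzmc to Gzmg molecules. Requiring an excess of 2 UMIs for the CD4 call left 8 and 15 cells and gave no Gzmb ratio.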
